A study of Volvox carteri with 12 samples.

Results

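This section describes 224 loci of the green alga Volvox carteri that were measured at low to moderate levels in somatic cells and at much lower levels in most gonidia libraries. They were chosen from 9593 loci matched by position across 11 gene tables, of which they made up 2.34%. A locus was chosen when its level was at least 1 FPKM (fragments per kilobase of transcript relative to all mapped fragments) in each of the 6 somatic libraries, when the mean of these 6 was below 20 FPKM, and when the mean of 3 gonidia libraries (white light A and C, UV-B C) was at most 10% of that somatic mean. The difference between the cell types therefore chose the loci, and it is given here as a description without a test. The contrast of UV-B with white light in somatic cells and the B replicates of the gonidia did not enter the choice. The UV-B contrast in gonidia is not free of it, since the rule used 3 of its 5 libraries.

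Volvox carteri forms spheroids of many small somatic cells with flagella and a few large reproductive cells, the gonidia. Somatic cells swim, do not divide and die with the spheroid, whereas gonidia divide to form the next generation. The transcription factor regA is known to hold somatic cells in their state by repressing reproductive functions. UV-B is the short-wave ultraviolet part of sunlight, which damages DNA and is sensed in green algae and plants by the photoreceptor UVR8.

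All libraries came from the wild-type strain Eve10, cultured synchronously at 28 °C with 16 h of light and 8 h of dark, at a stage between maturation and embryogenesis. The 4 groups were white-light somatic cells, UV-B somatic cells, white-light gonidia and UV-B gonidia, where UV-B stands for 1 h under a narrowband lamp at 0.056 mW/cm2. Each group has 3 biological replicates in the labels, with the letters A, B and C. The table of UV-B gonidia A was left out because all of its 4073 reference rows were at 0, so this group has 2 libraries and the others have 3.

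The tables pair no reference ID with a gene name. None of the 171 reference IDs of the chosen loci was found among 14334 genes of the RefSeq table, so regA or any other marker could not be looked up and no function can be given. The loci are named by scaffold position and, where they have one, by the reference ID of the tables, for which the genome build is not given in the sources used here. No sequence is shown for the same reason.

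In FPKM before scaling, the B gonidia libraries lay higher than the other gonidia libraries at many loci. Both B libraries were above all 3 others at 62.1% of the 7540 loci tested, without any choice by cell type. The factors later used for scaling were 1.284 and 1.305 in white-light and UV-B gonidia B. They were 1.065, 0.8896 and 0.8054 in white-light A, white-light C and UV-B C. A larger factor stands for generally larger FPKM in a library, and its part in this count was not tested. At 366 abundant loci chosen with the same ratio but a somatic mean of 20 FPKM or more, the median level was 25.3% of the somatic mean in white-light gonidia B and 24.8% in UV-B gonidia B. It was 5.47%, 2.50% and 2.19% in white-light A, white-light C and UV-B C, the libraries whose mean the choice of these loci capped, so this gap is partly built in. These shares are also of FPKM before scaling. In bulk RNA, a difference in the number of cells of a type and a difference in RNA per cell cannot be told apart.

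The somatic levels of the 224 loci ran from a mean of 1.31 to 19.96 FPKM, with a median of 9.09 FPKM. Over all loci tested the median somatic mean was 7.52 FPKM. The name low-level in the figures therefore refers only to the limit of 20 FPKM in the rule. The median over the loci was 8.30, 9.01 and 8.70 FPKM in white-light somatic A, B and C, and 8.24, 8.27 and 8.13 FPKM after UV-B. The 6 somatic libraries thus lay close together before scaling. In white-light gonidia the medians were 0.557 FPKM in A, 2.62 FPKM in B and 0.213 FPKM in C. Under UV-B they were 2.75 FPKM in gonidia B and 0.150 FPKM in gonidia C. The rule capped the mean of A and C of white light and C of UV-B at these loci and left the B libraries free, so the position of B above them follows in part from the choice.

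**Figure D1:**
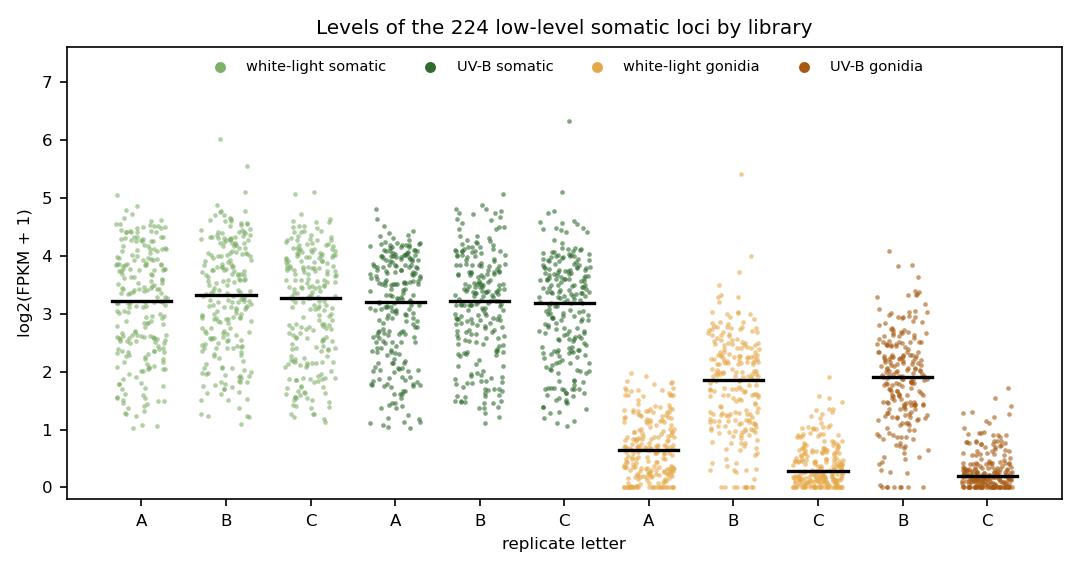
Level of each of the 224 loci, as log2(FPKM + 1), in the 11 libraries, grouped by cell type and light and lettered by replicate; each point is a locus and each black line the median over loci. The somatic libraries share nearly the same median, and among the gonidia the B libraries, with medians of 2.62 and 2.75 FPKM, stand above A and C.

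The confidence limits of the deposited values give the fragments behind them under counting error. The median locus rested on 455 to 796 implied fragments in the somatic libraries. It rested on 183 and 245 in the B gonidia libraries, and on 39.5, 23.1 and 14.4 in white-light gonidia A, white-light gonidia C and UV-B gonidia C. At these loci, single levels in these last 3 libraries are therefore the least precise.

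Every somatic library lay above every gonidia library at 179 of the 224 loci, a pattern that the rule favours. The same held at 1391 of the 7540 loci tested and at 359 of the 366 abundant somatic loci. At 44 of the other 45 loci, only B gonidia reached the lowest somatic library.

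Among the chosen loci, the 8 with the highest somatic mean lay between 19.6 and 19.96 FPKM, just under the limit. The locus Vocar20005505m.g.2.0 (scaffold 11, 2257328 to 2263269) measured 28.0, 18.7 and 23.3 FPKM in white-light somatic A, B and C and at 17.1, 14.3 and 18.3 FPKM after UV-B. It was listed at 0 in white-light gonidia A and C and in UV-B gonidia C, and at 5.17 and 4.50 FPKM in the B gonidia libraries. The locus overlapped another row by 99, 99 and 464 bp in the 3 tables with zeros, and by 99 bp in both B gonidia tables. It is the locus just inside the limit on the somatic mean, and Vocar20002313m.g.2.0 (scaffold 20, 890016 to 890247), with a mean of 20.1 FPKM, is just outside. Vocar20014055m.g.2.0 (scaffold 6, 1912728 to 1916109) measured 14.1, 18.3 and 16.6 FPKM in white-light somatic cells and at 19.5, 28.4 and 22.8 FPKM after UV-B, so that the UV-B libraries lay above the white-light ones without overlap. The locus without an ID at scaffold 32, 481563 to 487957, did so too, with 14.2, 13.8 and 14.0 FPKM in white light and 20.5, 32.4 and 22.6 FPKM after UV-B. The difference missed the threshold at both of these loci (limma, adjusted p = 1.0 each). It also missed it with the replicate letter as a block (limma, adjusted p = 0.16 and 0.18).

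At the lower limit, Vocar20008446m.g.2.0 (scaffold 1, 6719188 to 6723175) was just inside with a lowest somatic value of 1.03 FPKM, and Vocar20009338m.g.2.0 (scaffold 1, 518252 to 528188) was just outside with 0.999 FPKM. At the limit on the gonidia share, Vocar20008106m.g.2.0 (scaffold 15, 2547419 to 2565050) was just inside with 9.94% and Vocar20003767m.g.2.0 (scaffold 37, 877880 to 889989) was just outside with 10.1%. Loci on either side of each limit had nearly the same values.

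The B gonidia libraries, which the rule did not use, showed how far the low level in gonidia carried over. The chosen loci stood at a median of 28.9% of the somatic mean in white-light gonidia B and at 30.1% in UV-B gonidia B. The median was 6.35%, 2.96% and 1.93% in white-light A, white-light C and UV-B C, the libraries of the rule. Of the 224 loci, 9 were at or below 10% of the somatic mean in both B libraries. This held at 65 of the 7540 loci tested and at 4 of the 366 abundant somatic loci. At 36 loci the mean of the B libraries was at least 50% of the somatic mean, and at 4 it was at least 100%. Over the loci tested, 6402 and 4909 reached these shares. For comparison, the other 3329 loci with somatic levels in the same range had a median of 154% and 158% in the B libraries. All these shares are of FPKM before scaling, and the B libraries had the largest scaling factors. With scaled values the B share of the chosen loci was lower, as given with the alternatives below.

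**Figure D2:**
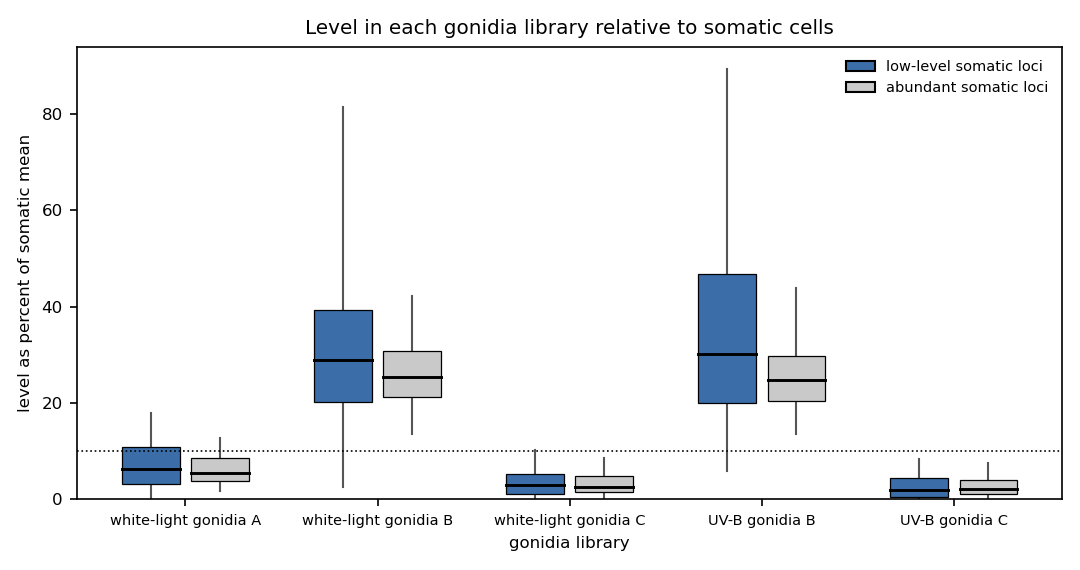
Level in each of the 5 gonidia libraries as a percent of the mean of the 6 somatic libraries, for the 224 low-level loci (blue) and the 366 abundant somatic loci (grey); boxes span the quartiles, black lines are medians, whiskers run from the 5th to the 95th percentile of loci, and the dotted line marks 10%. In the B libraries the medians are 28.9% and 30.1% for the low-level loci and 25.3% and 24.8% for the abundant loci, and the low-level loci are spread more widely. Levels are FPKM before scaling.

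Both B libraries lay above all 3 other gonidia libraries at 202 of the 224 loci, or 90.2%, where the background was 62.1% of the loci tested. The abundant somatic loci did so at 98.1%. The rule set a ceiling on the 3 other libraries, so this count is not independent of it. Like the background, it was taken before scaling. The B share was larger at lower somatic levels: its median was 36.9% at the 75 loci with a somatic mean of 1.31 to 6.07 FPKM, 32.5% at the 74 loci of 6.17 to 12.5 FPKM, and 27.2% at the 75 loci above that. These are descriptions of 2 libraries without a test.

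The loci with the largest B share reached somatic levels. Vocar20008629m.g.2.0 (scaffold 1, 4785555 to 4801878) measured 41.3 FPKM in white-light gonidia B and 15.9 FPKM in UV-B gonidia B, and at 0.294, 0.240 and 0.150 FPKM in the other gonidia libraries. Its somatic levels were 6.34, 17.5 and 16.6 FPKM in white light and 7.48, 4.86 and 33.2 FPKM after UV-B, so that the B gonidia lay within or above the somatic range. Vocar20007569m.g.2.0 (scaffold 14, 1927184 to 1942374) measured 4.66 and 4.58 FPKM in the B gonidia, at 0.0825 to 0.273 FPKM in the others and at 2.29 to 6.74 FPKM in somatic cells. Vocar20003015m.g.2.0 (scaffold 2, 1261348 to 1267558) measured 2.91 and 1.55 FPKM in the B gonidia and at 1.08 to 2.72 FPKM in somatic cells. The locus at scaffold 3, 1002610 to 1007569, was at 3.12 and 3.59 FPKM in the B gonidia, was listed at 0 in the other 3 and was at 1.59 to 2.79 FPKM in somatic cells. At these 4 loci the gonidia libraries did not share a level.

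At the other end, 6 of the 224 loci were listed at 0 in both B libraries, against 54 of the 7540 loci tested. Above 0, the B share was smallest at Vocar20014341m.g.2.0 (scaffold 6, 662801 to 663643), with 0.234 and 0.0352 FPKM in the B gonidia. Vocar20002251m.g.2.0 (scaffold 20, 565947 to 567508) measured 0.236 and 0.210 FPKM there, against 2.23 to 5.16 FPKM in the somatic libraries. Vocar20014804m.g.2.0 (scaffold 28, 1101699 to 1108434) measured 0.241 FPKM in white-light gonidia B and was listed at 0 in UV-B gonidia B, where another row overlapped it by 15 bp. Vocar20004593m.g.2.0 (scaffold 8, 3172884 to 3184186) measured 0.107 and 0.610 FPKM in the B gonidia and at 2.89 to 9.34 FPKM in somatic cells. These 4 loci with the smallest shares above 0 were low in all 5 gonidia libraries, with at most 0.792 FPKM in any of them.

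A value of 0 in the gonidia tables often stood beside an overlapping gene row. Of their gonidia values, 112 were 0, and in 76 of these (67.9%) another row of the same table overlapped the locus by at least 1 bp. This was so for 297 of the 1008 values above 0 (29.5%). In the B libraries all 18 zeros had an overlapping row, against 38.4% of the 430 values above 0. None of the 1344 somatic values was 0, by the rule, although 616 of them (45.8%) had an overlapping row. The tables do not say how fragments in a shared stretch were assigned, and the part of the overlaps in the zeros was not tested.

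Listed at 0 in all 3 gonidia libraries of the rule were 18 of the 224 loci, against 56 of the 7540 loci tested. The rule favours such zeros. An overlapping row stood in each of the 3 tables at 13 of the 18 loci. Of the 18, 11 were above 0 in both B libraries and 2 in 1 of them. An example is Vocar20014606m.g.2.0 (scaffold 27, 890960 to 892471), chosen for its low variation. It was at 13.4, 15.2 and 13.1 FPKM in white-light somatic cells, at 13.3, 16.2 and 14.0 FPKM after UV-B, and at 14.9 and 13.1 FPKM in the B gonidia, so that these 8 libraries shared a level. In white-light gonidia A and C and UV-B gonidia C it was listed at 0. In these 3 tables a neighbouring row of 48.1, 20.5 and 43.7 FPKM overlapped its end by 44, 42 and 43 bp, and in the other 8 tables no row overlapped it.

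At 0 in all 5 gonidia libraries were 5 of the 224 loci, against 16 of the 7540 loci tested, a pattern that the rule favours. Each of the 5 loci had an overlapping row in each of the 5 tables. Vocar20002566m.g.2.0 (scaffold 2, 3702600 to 3704493) measured 18.1, 19.9 and 20.4 FPKM in white-light somatic cells and at 17.3, 15.6 and 15.9 FPKM after UV-B, and 1159 bp of it lay under a row of 16.3 to 49.0 FPKM in the gonidia. Vocar20002365m.g.2.0 (scaffold 20, 713566 to 718340) measured 18.9, 15.4 and 9.89 FPKM in white-light somatic cells and at 14.5, 10.5 and 5.65 FPKM after UV-B, with an overlap of 560 bp. The locus at scaffold 28, 118720 to 122413, was at 7.10 to 9.11 FPKM in somatic cells. Vocar20003121m.g.2.0 (scaffold 21, 2039162 to 2042920), at 3.69 to 9.41 FPKM in somatic cells, overlapped by only 36 to 49 bp a gonidia row of 56.4 to 112 FPKM, and the overlap was 34 to 51 bp in the somatic tables. Vocar20001277m.g.2.0 (scaffold 24, 950723 to 952387) was the lowest of the 5, at 1.15 to 2.24 FPKM in somatic cells. No locus was thus at 0 in all gonidia without a row across it. With loci above 0 in all 5 gonidia libraries only, 177 remained, and their median B share was 30.3%.

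UV-B was then compared with white light in somatic cells, a contrast that the choice of loci did not use. After adjustment, 0 of the 224 loci were higher (background 0.0796% of the loci tested) and 0 were lower (background 0%) in limma with Benjamini-Hochberg adjustment. At an unadjusted p under 0.05, 2 were higher (0.893%, background 2.68%) and 6 were lower (2.68%, background 1.92%). The smallest adjusted p was 0.52. Without both B gonidia libraries, which enter only the estimate of the spread, 0 loci were called and 27 (12.1%, against 4.51% of all loci) were lower at an unadjusted p under 0.05.

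Most of the loci nonetheless lay lower under UV-B. The median log2 change was -0.21, against -0.03 over all loci tested, -0.01 over the other loci in the same somatic range and -0.33 over the abundant somatic loci. A log2 change here is on the scale of log2(scaled FPKM + 1), which understates the change of low loci. The change was below 0 at 170 loci (75.9%) and above 0 at 54 (24.1%), where all loci tested gave 55.6% and 43.7%. The abundant somatic loci gave 91% and 9.02%. Taken by replicate letter and without a pseudocount, the median was -0.24 in A, -0.30 in B and -0.25 in C, where all loci tested gave -0.06, -0.05 and -0.05.

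The replicate letters paired the somatic libraries, so the pairs were also counted. Lower under UV-B in all 3 pairs were 101 loci (45.1%, background 26.8%), and higher in all 3 were 20 loci (8.93%, background 16.0%). Of the other loci in the same somatic range 22.3% were lower in all pairs, and of the abundant somatic loci 76.2%. All 3 UV-B libraries lay below all 3 white-light ones at 43 loci (19.2%, background 8.49%) and above them at 8 loci (3.57%, background 4.56%). With the letter as a block in limma, 0 loci were called (background 0.119% higher and 0% lower), and 53 (23.7%, background 12.1%) were lower and 10 (4.46%, background 6.31%) higher at an unadjusted p under 0.05. The chosen loci lay between the loci of the same level and the abundant somatic loci.

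**Figure D3:**
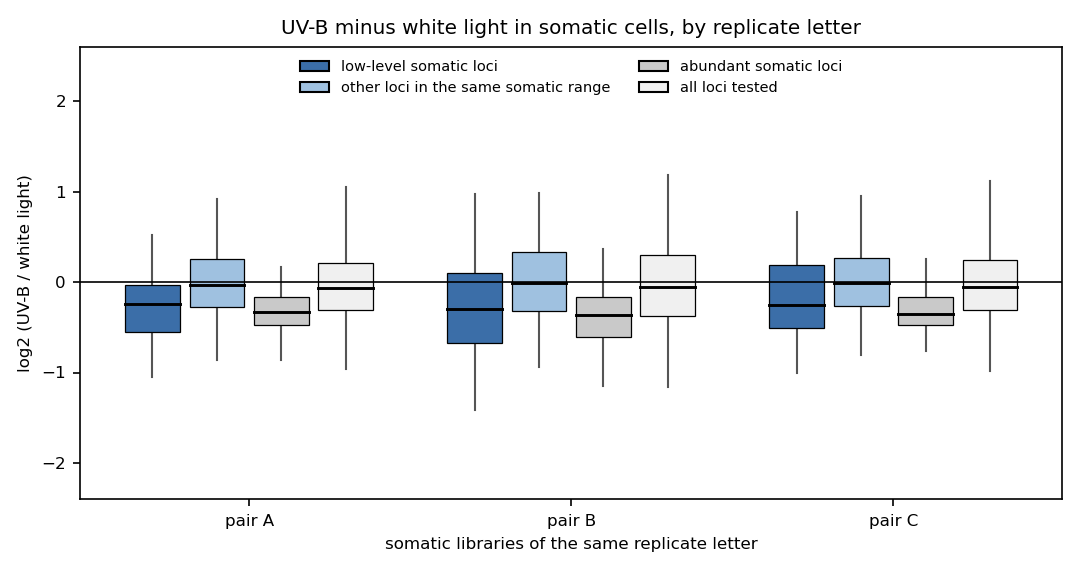
Log2 ratio of UV-B to white light in somatic cells for each replicate letter, over the 224 low-level loci, the other 3329 loci in the same somatic range, the 366 abundant somatic loci and all 7540 loci tested; boxes span the quartiles, black lines are medians and whiskers run from the 5th to the 95th percentile of loci. The low-level loci have medians of -0.24, -0.30 and -0.25, below those of loci in the same range and above those of the abundant loci.

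The measured shift was larger among the more highly expressed of these loci, on a scale that understates the change of low loci. At the 75 loci with a somatic mean of 12.6 to 19.96 FPKM the median log2 change was -0.29, and 46 were lower in all 3 pairs. At the 74 loci of the middle range the median was -0.19 with 32 lower in all pairs, and at the 75 lowest it was -0.15 with 23. The pair counts use no pseudocount, but no background by level stands beside them. The median SD over the 6 somatic libraries was 0.40 in the highest range, 0.43 in the middle and 0.45 in the lowest. Whether the shift depends on the level was not tested.

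The 4 loci with the smallest p for a fall were examined singly, and none passed the threshold. Vocar20002251m.g.2.0 was at 4.33, 5.16 and 3.67 FPKM in white-light somatic cells and at 2.998, 2.23 and 2.56 FPKM after UV-B, without overlap of the groups. The log2 change was -0.67 ± 0.18 (SE) (limma, adjusted p = 0.52; 0.14 with the letter as a block). Lower in all 3 pairs, this locus lies wholly inside a longer row in each of the 11 tables. The locus at scaffold 41, 302546 to 321296, was at 5.07, 3.06 and 5.33 FPKM in white light and at 2.45, 2.32 and 2.26 FPKM after UV-B, without overlap, and its log2 change was -0.79 ± 0.30 (SE) (limma, adjusted p = 0.94). The other 2 loci, at scaffold 20, 1597249 to 1603164, and scaffold 27, 1288108 to 1289143, had log2 changes of -0.84 ± 0.29 and -0.52 ± 0.22 (SE); their groups overlapped, but both were lower under UV-B in all 3 pairs.

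Among the 8 loci with the highest level, Vocar20006111m.g.2.0 (scaffold 12, 2888376 to 2904233) had the lowest UV-B levels relative to white light. It was at 22.3, 24.3 and 32.3 FPKM in white-light somatic cells and at 15.3, 12.3 and 13.0 FPKM after UV-B. The groups did not overlap, and the log2 change was -1.01 ± 0.44 (SE) (limma, adjusted p = 1.0; 0.098 with the letter as a block). The row spans 15858 bp, no other row covers more than 10% of it in any table, and it rested on 1609 to 2976 implied fragments in each somatic library. In gonidia it was at 0.837, 3.88 and 0.351 FPKM in white light and at 2.90 and 0.270 FPKM in UV-B B and C. The smallest adjusted p with the block, 0.093, belonged to the locus at scaffold 2, 3006858 to 3015135, named after its values were seen. It was at 20.4, 15.9 and 16.9 FPKM in white-light somatic cells and at 13.9, 9.72 and 11.2 FPKM after UV-B, again without overlap.

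The 4 loci with the smallest p for a rise were examined in the same way. Vocar20004593m.g.2.0 was at 3.50, 4.33 and 2.89 FPKM in white-light somatic cells and at 4.98, 9.34 and 4.76 FPKM after UV-B. The groups did not overlap, and the log2 change was 0.55 ± 0.22 (SE) (limma, adjusted p = 0.97; 0.19 with the letter as a block). Vocar20005071m.g.2.0 (scaffold 9, 2594263 to 2594712) measured 4.74, 4.36 and 5.62 FPKM in white light and at 15.5, 7.36 and 79.4 FPKM after UV-B. Its groups did not overlap either, but the UV-B values were far apart, and the log2 change was 1.83 ± 0.73 (SE) (limma, adjusted p = 0.97). The implied fragments were 26.9, 36.2 and 40.0 in white light and 46.9, 31.0 and 51.2 under UV-B, not in proportion to the FPKM. Limits wider than counting error also lower implied fragments, and their part here was not tested. At scaffold 73, 54502 to 55737, the levels were 11.7, 5.01 and 11.8 FPKM in white light and 19.4, 13.3 and 21.3 FPKM after UV-B, again without overlap, and the log2 change was 0.81 ± 0.43 (SE). At scaffold 23, 1376331 to 1378337, the groups overlapped and the log2 change was 0.42 ± 0.24 (SE).

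**Figure D4:**
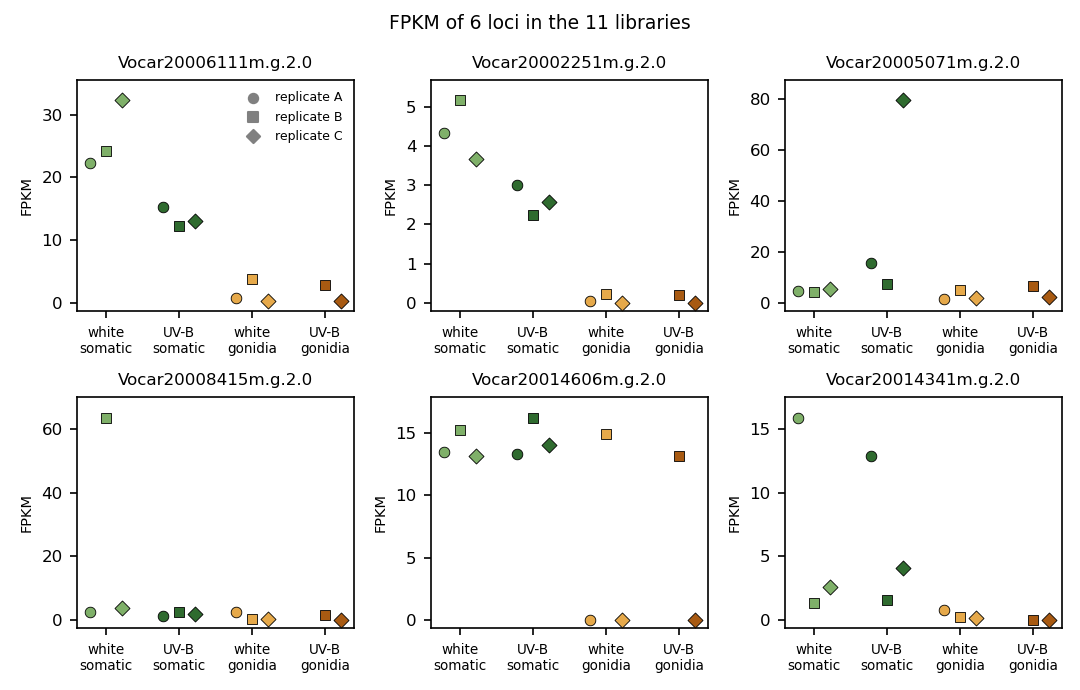
FPKM of 6 of the loci in each of the 11 libraries, with a panel for each locus, a column for each group and a marker shape for each replicate letter; each panel has its own linear axis. Vocar20006111m.g.2.0 and Vocar20002251m.g.2.0 are lower under UV-B in all somatic pairs, Vocar20005071m.g.2.0 and Vocar20008415m.g.2.0 have a single high library at 79.4 and 63.6 FPKM, Vocar20014606m.g.2.0 is level in 8 libraries and listed at 0 in 3, and Vocar20014341m.g.2.0 is high in both A somatic libraries.

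In gonidia, where 3 of the 5 libraries had entered the rule, 0 of the 224 loci were higher and 0 were lower under UV-B after adjustment (limma; background 0% higher and 0.0133% lower), and 2 were higher (background 0.955%) and 1 lower (background 0.836%) at an unadjusted p under 0.05. The sign of the median log2 change, 0.09, depended on single libraries: it was -0.49 without UV-B gonidia B and 0.68 without UV-B gonidia C, where the spread of the single UV-B library left is taken from the other groups. Within the letters, the median was 0.00 in B and -0.02 in C on the log2(FPKM + 1) scale. With the letter as a block, 0 loci were called (background 0% higher and 0.0265% lower), with 3 higher (background 2.15%) and 6 lower (background 2.81%) at an unadjusted p under 0.05. Gonidia thus gave no stable direction for these loci.

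The locus at scaffold 4, 3776509 to 3785264, had the smallest p in gonidia. It was at 0.163 FPKM in white-light A, was listed at 0 in white-light B and C, and was at 1.99 and 1.22 FPKM in UV-B B and C. The log2 change was 1.26 ± 0.20 (SE) (limma, adjusted p = 0.24), and with a pseudocount of 0.1 it was 3.57 with an adjusted p of 0.048. In the tables with the zeros a row of 98.7 and 84.9 FPKM overlapped it by 39 and 21 bp, and in the other 3 gonidia tables no row did. Without UV-B gonidia C, which leaves 1 UV-B gonidia library, the locus at scaffold 11, 2420351 to 2424926, had a log2 change of 3.05. It was at 9.51 FPKM in UV-B gonidia B and listed at 0 in the other 4 gonidia libraries, each time beside a row that overlapped it by 45 to 50 bp, and in UV-B gonidia B the overlap was 175 bp. The lowest p for a fall was at Vocar20004583m.g.2.0 (scaffold 8, 372942 to 386659), at 2.01, 2.07 and 0.566 FPKM in white-light gonidia and at 0.447 and 0.107 FPKM after UV-B without overlap (log2 change -0.91 ± 0.35 SE, adjusted p = 1.0, limma).

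The responses of the cell types were compared directly as the UV-B change in somatic cells minus that in gonidia, which rests on the same 3 libraries of the rule. Of the 224 loci, 0 were called in either direction (limma; background 0.0398% higher and 0% lower). At an unadjusted p under 0.05, 0 were higher (background 1.18%) and 2 lower (background 0.955%). The median difference was -0.33 against -0.04 over all loci, and it was 0.27 without UV-B gonidia B. With the letter as a block, 0 were called (background 0.0398% higher and 0% lower), with 2 higher (background 3.05%) and 18 lower (8.04%, background 4.18%) at an unadjusted p under 0.05. Without UV-B gonidia C, the locus at scaffold 11 named above had a difference of -3.04, again with a single UV-B gonidia library left.

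The SD of the log2 levels over the 6 somatic libraries had a median of 0.42, against 0.38 over the other loci in the same range, 0.39 over all loci tested and 0.30 over the abundant loci. It was at least 1 at 13 loci and below 0.2 at 17. The replicate letter held a median of 46.2% of this variation and the light 25.5%, where all loci tested gave 56.8% and 12.8% and the abundant loci 34.6% and 51.7%. The letter has more levels than the light and takes up a larger share even without any effect. These shares therefore compare sets of loci, not the letter with the light. White-light and UV-B somatic A were both the highest of their group at 59 loci (26.3%; 24.0% of all tested), and both B libraries the lowest at 74 loci (33.0%; 27.3% of all tested).

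The median B gonidia share was also set beside the somatic letters. It was 38.6% at the 34 loci where somatic B was highest in both lights and 27.4% at the 74 loci where it was lowest. The split by letter A was about as wide, with 26.3% where A was highest and 37.5% where it was lowest, and letter C gave 30.5% and 32.7%. The somatic mean in the denominator includes the B libraries.

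The variation was widest at 4 loci. Vocar20008415m.g.2.0 (scaffold 1, 8199853 to 8200726) measured 63.6 FPKM in white-light somatic B and at 1.16 to 3.81 FPKM in the other 5 somatic libraries. The limits of that high value gave 7.31 implied fragments, fewer than the 28.4 for the 3.81 FPKM of white-light somatic C. Limits wider than counting error also give fewer implied fragments, which was not tested at these loci. Vocar20001544m.g.2.0 (scaffold 23, 11840 to 17111) measured 23.1, 16.5 and 14.5 FPKM in white-light B, UV-B A and UV-B C and at 1.91 to 2.22 FPKM in the other 3. The limits gave 166 to 254 implied fragments in the high libraries and 114 to 164 in the low ones. These numbers differed far less than the FPKM. Vocar20014341m.g.2.0 was at 15.9 and 12.9 FPKM in somatic A of both lights and at 1.34 to 4.09 FPKM in B and C, with 305 and 317 implied fragments in A against 25.8 to 138 in the others. At this locus the implied fragments followed the FPKM, and the letter rather than the light set the high libraries apart. The fourth, Vocar20005071m.g.2.0, is described above with the loci of smallest p.

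The other 3 of the 4 steadiest loci, after Vocar20014606m.g.2.0, lay in a narrow range. Vocar20009779m.g.2.0 (scaffold 1, 10833192 to 10837688) measured 4.43 to 5.77 FPKM in the 6 somatic libraries. The locus at scaffold 15, 87310 to 89510, was at 15.9 to 21.8 FPKM, and Vocar20011114m.g.2.0 (scaffold 43, 649472 to 651628) at 14.0 to 18.6 FPKM. Their SDs over the scaled somatic libraries were 0.08, 0.10 and 0.11 on the log2 scale.

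The chosen loci had long rows, and most had a reference ID in at least 1 table. Their median length was 7186 bp, with a range of 274 to 44467 bp, against 5238 bp in the same somatic range, 5977 bp for the abundant loci and 4820 bp over all loci tested. A reference ID was listed in at least 1 table for 171 loci (76.3%), compared with 32.5%, 55.7% and 48.9% of those sets. For 132 of the 171 the ID stood only in gonidia tables, and for 8 it stood in all 11. The ID was given to 61.2% of the rows in UV-B gonidia C, 51.8% in white-light gonidia C and 34.4% in white-light gonidia A, to 16.5% in each B gonidia table, and to 8.48% to 12.1% in the somatic tables. The tables with the highest shares were those whose mean the rule capped, and the part of the choice in these shares was not tested. The same order of the gonidia tables was seen over the abundant somatic loci, at 41.5%, 35.5% and 28.7% and then 24.0% and 22.4% in the B tables, and UV-B gonidia C was also the highest table over all loci tested, at 28.8%. The rows in the gonidia tables of the rule had a median of 94% of the somatic row length.

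The loci lay on 54 scaffolds, with 19 of 1144 matched loci on scaffold 1, 13 of 194 on scaffold 13 and 13 of 342 on scaffold 6. Over all scaffolds they made up 2.34% of the matched loci. Within 20 kb of each other lay 12 neighbouring pairs. Such pairs were not counted for other loci, and whether the chosen loci cluster was not tested. The longest run was on scaffold 4, with rows at 716826 to 721893, 722193 to 731230 and 749760 to 763091. Their somatic levels were 7.40 to 14.0, 5.67 to 22.7 and 5.01 to 7.02 FPKM, and their profiles differed: the middle row was highest in B of both lights, at 22.2 and 22.7 FPKM, where the first was lowest. The closest pair was 241 bp apart on scaffold 20. There Vocar20002183m.g.2.0 (1593647 to 1597008) was at 12.4 to 25.2 FPKM in somatic cells and at 8.19 and 7.21 FPKM in the B gonidia. Its neighbour Vocar20002180m.g.2.0 (1597249 to 1603164) was at 3.55 to 12.5 FPKM in somatic cells and was listed at 0 in both B gonidia libraries, beside an overlapping row of 13.3 and 13.9 FPKM.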

How the data were processed

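Gene expression was measured by polyA-selected Illumina RNA sequencing in 12 libraries, and 11 were used. The authors' deposited tables hold FPKM values with confidence limits for each gene row, per the file headers. Per the submitters' processing notes, the tools were TopHat2, Cufflinks 2.0.1 and Cuffdiff. Each table lists its own rows, so rows were linked across tables when they shared 80% or more of the longer one, and sets with exactly 1 row in each of the 11 tables were kept. A locus assembled in fewer tables is missing from every comparison. FPKM were divided by median-of-ratios factors, loci reaching 1 FPKM in 3 or more libraries were tested as log2(FPKM + 1), and limma 3.58.1 in R 4.3.3 was fitted with 4 group means, an intensity trend and Benjamini-Hochberg adjustment over 7540 loci at 0.05. The planned fit on 12 libraries was made on 11. Implied fragments are (FPKM/SD) squared, with the SD taken from the upper limit, and cover counting error only. Where a locus has several isoforms, its limits exceed counting error. The code was tested on simulated data.

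The replicate letters were checked for pairing. The correlation between same-letter somatic libraries, after subtracting the group mean, was 0.351 (A), 0.447 (B) and 0.202 (C). The letters were therefore treated as pairs, which rests on the data because no label says what a letter shares. The members and lists were chosen with earlier results of these data known. Loci named singly are the 8 with the highest somatic mean, those with the smallest p (4 for a rise and 4 for a fall in somatic cells, 2 in gonidia), those at 0 in all gonidia, the 4 highest B shares and the 4 lowest above 0, the 4 most and 4 least variable, those beside each limit, and neighbours within 20 kb. Other pseudocounts, filters, scalings, overlaps, a replicate block and left-out libraries were tried as alternatives.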

Additional observations from a re-analysis of the deposited data

How the results depend on the processing

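No alternative called a locus for UV-B in somatic cells, in either direction: the count was 0 with a pseudocount of 0.1, without the filter, with deposited or quantile-scaled values, with the somatic libraries alone, without the B gonidia, at 90% overlap and with each library left out. The letters paired the somatic libraries, and with the replicate block the counts stayed at 0 in both cell types and for the difference, with a median somatic change of -0.21. With a pseudocount of 0.1, 1 locus was called in gonidia and 0 for the difference. Over all loci tested, 1 was higher and 1 lower in gonidia there. Leaving out a somatic or a white-light gonidia library gave 0 calls in gonidia and for the difference. Without UV-B gonidia B or C, 1 UV-B gonidia library is left, so only effect sizes are given. The median somatic change was -0.11 with deposited values and -0.17 with quantile scaling (medians of all loci 0.05 and 0.00), and -0.26 to -0.19 with a library left out. Lower in all 3 pairs were 80 loci (35.7%, all loci 16.1%) with deposited values and 104 (46.4%, all loci 22.3%) with quantile scaling; higher were 26 (11.6%, 26.5%) and 20 (8.93%, 19.0%). Among the 136 loci that no row covered by more than 10%, 61 (44.9%) were lower in all pairs, against 27.5% of all such loci tested. Higher in all pairs were 11 (8.09%, against 16.1%), and the B share of the 136 loci was 29.4%. The B share was 22.6% with scaled values. The number of loci was 148 at 90% overlap, 311 at 60%, 210 with scaled values and 139 without any overlapping row in the gonidia tables of the rule, an alternative chosen after seeing the data, as were the pair counts. At the 224 loci, values in the 3 gonidia libraries of the rule rest on a median of 14.4 to 39.5 implied fragments, against 385 to 529 over all loci tested.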

Other observations

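The table left out of every comparison, UV-B gonidia A, had all 4073 reference rows at 0 and no value above 6.9 FPKM among 30344 rows. Of the 224 loci, 209 had a row there, and 40 of these were above 0, the highest at 2.0 FPKM. Its levels are not comparable with those of the other libraries.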
